A study of Mus musculus with 24 samples.

Results

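DNA transposons were examined as 197 repeat subfamilies, out of 1146 repeat subfamilies and 56633 features counted in every library. A subfamily entered the set when the name in the deposited count tables gave DNA as its class, so no measured value chose the members. The 21 subfamilies of the uncertain class "DNA?" were left out. The members fall into 13 families, and the families with the most members were hAT-Charlie with 73, TcMar-Tigger with 44 and hAT-Tip100 with 31.

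DNA transposons moved by cut and paste: a transposase bound the terminal inverted repeats of an element, cut it out and inserted it elsewhere. In the mouse these elements are fossils, without an active family, and most subfamilies are older than the split of rodents from other mammals. Their copies lie mainly in introns and between genes, so a read from one usually belongs to a longer transcript that started at another promoter. A count of a subfamily sums its copies over the whole genome, and the tables do not say which copies were read, whether they were intronic or intergenic, or how long they are.

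The samples were KH2 cells, a line of mouse embryonic stem cells. All carried a DUX transgene under a doxycycline (DOX)-responsive promoter, including the controls. DUX is the transcription factor that switches on the gene programme of the 2-cell embryo, and the series title concerns the exit from that state under the related factor DUXBL. The question for these elements was whether RNA from ancient sequence changed with DOX in each line, and whether the change differed between lines. Cells of 6 lines were sequenced untreated and after DOX for 16 h, with 2 libraries per group and 24 in all. WT and the line labelled DUXBL-KO form one set. WT pLV2 line 1, WT pLV2 line 2, the line labelled TRIM24-KO pLV2 and TRIM33-KO pLV2 form the other; what pLV2 stands for is not given in the sources used here, and each line may be 1 clone. The growth protocol names gelatin or a feeder layer of growth-arrested fibroblasts without saying which was used for which library. Nothing in the labels says that the 2 libraries of a group came from separate cultures, so p-values measure only the spread between these libraries, which may be technical.

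Total counts ranged from 14203366 to 22492372 per library, and gene counts from 11784696 to 19136869. The 8 stem-cell markers were all at or above 1 CPM (counts scaled to the library size) in every library. The summed level of 10 markers of the 2-cell-like state was 125 to 319 CPM without DOX and 12873 to 120619 CPM with DOX, and 12 fibroblast markers summed to 11.8 to 34.6 CPM without DOX and 22.5 to 41.9 CPM with it. Trim33 was at 16.9 to 21.4 CPM in the 4 TRIM33-KO libraries and at 85.2 CPM or more in the others. The Trim24 transcript was at 120 to 137 CPM in the libraries labelled TRIM24-KO, against 94.5 to 100.2 CPM in WT pLV2 line 1 and 165 to 199 CPM in line 2. The Duxbl1 transcript had 6 to 169 counts in the libraries labelled DUXBL-KO and 6 to 139 in WT. The deleted parts are not given in the sources used here, so these transcripts do not check those labels. The treatment tag contradicted the title in 8 pLV2 libraries. The titles were followed: libraries with DOX in the title had 20 to 110 Dux counts, and those without had 0 to 2. The transcript CT010467.1 took 30.4% of gene counts in replicate 2 of TRIM24-KO pLV2 with DOX and 12.9% in replicate 2 of TRIM33-KO pLV2 with DOX. Results of the pLV2 set were therefore also computed without these libraries.

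The share of class DNA in all counts was lowest at 0.468% in replicate 2 of TRIM24-KO pLV2 with DOX (95% interval by Wilson's method 0.465 to 0.472) and highest at 1.48% in replicate 2 of untreated WT (1.47 to 1.48). In that TRIM24-KO library CT010467.1 took 30.4% of gene counts, which lowers the share of every other feature. In CPM, class DNA was lowest at 5769 in replicate 2 of untreated TRIM33-KO pLV2. One subfamily held most of the class DNA counts. FordPrefect, a hAT-Tip100 element, took 62.4% to 83.2% of class DNA counts in each library. In WT it had 9098 and 12089 CPM without DOX and 10128 and 10578 CPM with DOX. The line labelled DUXBL-KO had 11263 and 10133 CPM without DOX and 12045 and 11015 CPM with it. WT pLV2 line 1 had 9529 and 9436 CPM without DOX and 9178 and 9313 CPM with it. The untreated WT libraries lay 1 below and 1 above both DOX libraries of that line, and the arms also overlapped in the line labelled DUXBL-KO. No change passed the test in these 3 lines, and the log2 fold changes were -0.03 ± 0.14, 0.11 ± 0.14 and -0.04 ± 0.21 (SE).

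In the other 3 lines the untreated libraries lay lower, between 3601 and 7304 CPM. WT pLV2 line 2 had 6988 and 6914 CPM without DOX and 9262 and 8598 CPM with it (log2 0.36 ± 0.21, edgeR adjusted p = 0.228). The line labelled TRIM24-KO pLV2 had 7304 and 6173 CPM without DOX and 8961 and 5887 CPM with it, so its arms overlapped. TRIM33-KO pLV2 had 6474 and 3601 CPM without DOX and 9965 and 7191 CPM with it, and there FordPrefect rose 1.70-fold (log2 0.77 ± 0.21, edgeR adjusted p = 0.00902). The untreated replicates of TRIM33-KO pLV2 differed from each other about as much as the arms did: the log2 fold change was 0.42 without untreated replicate 2 and 1.27 without untreated replicate 1. The call was lost without untreated replicate 2 and without DOX replicate 1. The size of the FordPrefect response in TRIM33-KO pLV2 did not pass the test against the mean of both WT pLV2 lines (log2 difference 0.61 ± 0.26, edgeR adjusted p = 0.366).

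**Figure D1:**
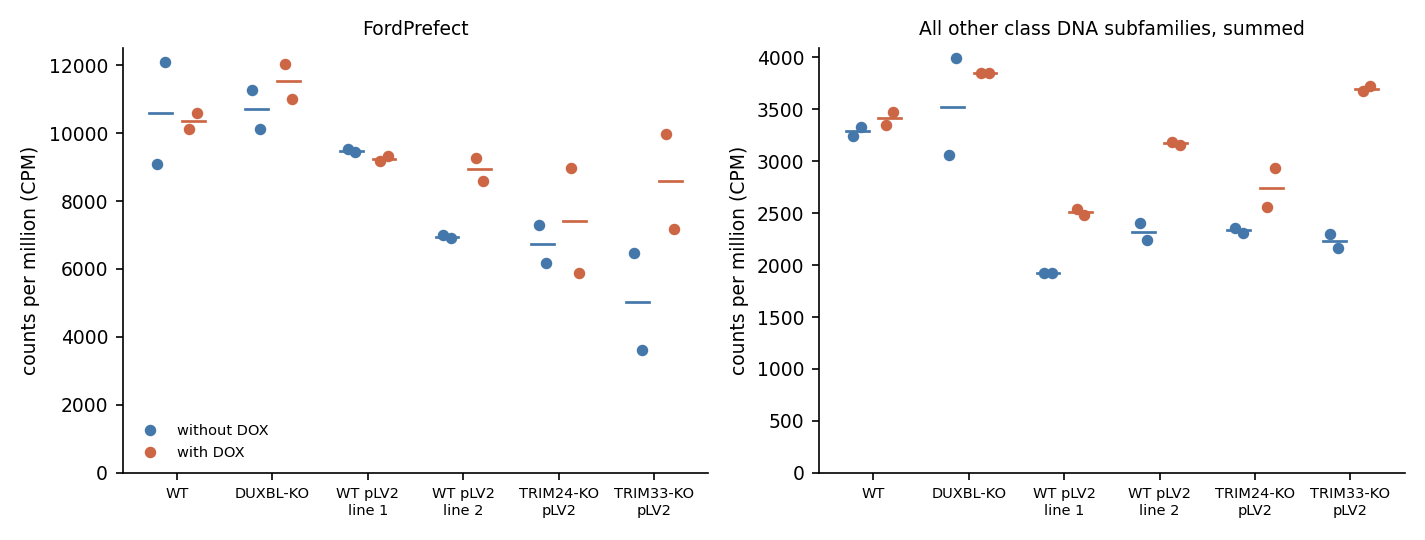
Level of FordPrefect (left) and of the other class DNA subfamilies summed (right) in each library, in CPM on linear axes that start at 0. Points are libraries and short bars the mean of 2; the FordPrefect replicates of TRIM33-KO pLV2 without DOX lie at 6474 and 3601 CPM, while the summed rest lies at 3674 and 3724 CPM with DOX in that line, above both libraries without DOX.

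Without FordPrefect, the class sum separated the DOX arms in 5 of 6 lines. It was 3243 and 3333 CPM without DOX and 3351 and 3478 CPM with DOX in WT, where the mean rose least, by 3.84%. The gap between the WT arms was smaller than the gap between the replicates of either arm. For WT pLV2 line 1 the sum went from 1926 and 1922 CPM to 2542 and 2482 CPM, 30.5% higher. For line 2 it went from 2403 and 2244 CPM to 3189 and 3155 CPM, 36.5% higher. All 4 of these arms were tight, with a larger gap between arms than between replicates. The line labelled TRIM24-KO pLV2 had 2360 and 2310 CPM without DOX and 2556 and 2933 CPM with it, 17.5% higher. Its DOX replicates lay further apart than its arms. TRIM33-KO pLV2 had 2296 and 2169 CPM without DOX and 3674 and 3724 CPM with it, 65.7% higher. The line labelled DUXBL-KO was the exception, with 3061 and 3990 CPM without DOX and 3847 and 3852 CPM with it, so its arms overlapped. These sums carry no test, and fewer cells of a type and less RNA per cell cannot be told apart in bulk samples. Under the same scale MERVL-int, the internal part of the retrovirus that marks the 2-cell-like state, rose from 96.6 to 212 CPM without DOX (group means) to 16451 CPM in WT, 17996 in WT pLV2 line 1, 27967 in the line labelled TRIM24-KO pLV2, 35549 in the line labelled DUXBL-KO, 50961 in WT pLV2 line 2 and 82651 in TRIM33-KO pLV2. Its part in the class DNA values was not tested.

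For the test of single subfamilies, edgeR's quasi-likelihood model was fitted to genes and repeat subfamilies together, and a change passed at a Benjamini-Hochberg adjusted p under 0.05 over all features. Of the 197 members, 176 had enough counts for the test in the first set and 171 in the pLV2 set, and 21 were tested in neither. In WT, DOX moved 0 of 176 past the threshold, with a median log2 fold change of 0.05. In that comparison 15 had an unadjusted p under 0.05, DESeq2 called 2, a fit with the replicate number as a block called 2, 3.12% of all features passed and 6.21% of the repeats outside class DNA passed. Both DOX libraries lay above both others for 58 of the 176 members, where the share was 22.6% of all features and 55.4% of other repeats. The line labelled DUXBL-KO had 7 of 176 risen and none fallen (median 0.09), where 5.82% of all features passed, 5.35% upward, and 21.4% of other repeats passed. Both DOX libraries lay above both others for 45 members there, where the share was 24.6% of all features and 58.0% of other repeats. The 7 were MER63C, MER63D, MER102c, Charlie24, Tigger17a, Zaphod2 and Arthur1, named because they are so few. That count rests on single libraries: without replicate 1 or 2 of the untreated arm it was 1 or 4, and without replicate 1 or 2 of the DOX arm 1 or 2. The calls of Charlie24 and MER102c each held in 1 of these 4 fits. The median of 0.09 rests on them too: it was -0.10 without untreated replicate 1, 0.28 without untreated replicate 2 and 0.05 without DOX replicate 2. In WT the median was 0.02 without DOX replicate 2, and 0.09 without DOX replicate 1 or untreated replicate 2.

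The pLV2 lines gave more calls. WT pLV2 line 1 had 51 of 171 members risen and 0 fallen (median log2 fold change 0.36), where 18.7% of all features passed, 12.5% upward, and 59.6% of other repeats passed. Line 2 had 71 of 171 risen and 0 fallen (median 0.34), where 29.3% of all features passed, 15.7% upward, and 74.4% of other repeats passed. The line labelled TRIM24-KO pLV2 had 33 risen and 1 fallen (median 0.16), where 18.4% of all features passed, 13.5% upward, and 55.9% of other repeats passed. TRIM33-KO pLV2 had 90 risen and 6 fallen (median 0.55), where 38.9% of all features passed, 19.6% upward, and 80.6% of other repeats passed. Both DOX libraries lay above both others for 100 of the 171 members in WT pLV2 line 1 (31.0% of all features, 81.6% of other repeats), 100 in line 2 (27.8% and 86.3%), 73 in the line labelled TRIM24-KO pLV2 (30.1% and 73.7%) and 112 in TRIM33-KO pLV2 (31.0% and 88.7%). In each of the 6 lines a smaller share of class DNA than of the other repeats passed, and their median was the lower one: the other repeats had medians of 0.24 in WT, 0.40 in the line labelled DUXBL-KO, 0.67 in WT pLV2 line 1, 1.08 in line 2, 0.67 in the line labelled TRIM24-KO pLV2 and 1.38 in TRIM33-KO pLV2. Leaving out one library moved 2 of these counts by over 1.5 times. The count of WT pLV2 line 1 became 32 without DOX replicate 2 and 33 without untreated replicate 1. The count of the line labelled TRIM24-KO pLV2 became 13 without DOX replicate 2, 22 without untreated replicate 1 and 15 without untreated replicate 2. The median of that line was 0.08 without DOX replicate 2 and 0.30 without DOX replicate 1.

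The other ancient repeats offer a comparison. LINE families L2 and CR1 and the SINE family MIR are also fossils of the mammalian past, scattered through introns and intergenic sequence. In WT the median log2 fold change was 0.0047 over the 17 tested L2 and CR1 subfamilies and 0.017 over the 4 of MIR, beside 0.05 for class DNA. The line labelled DUXBL-KO had 0.08 and 0.05, beside 0.09, which changes sign when 1 untreated library is left out, as given above. For WT pLV2 line 1 they were 0.36 and 0.28, beside 0.36, and for WT pLV2 line 2 0.49 and 0.33, beside 0.34. The line labelled TRIM24-KO pLV2 had 0.33 and 0.12, beside 0.16, and TRIM33-KO pLV2 had 0.65 and 0.56, beside 0.55. All genes had medians between -0.09 and -0.00 over the 6 lines. Genes annotated as sense-intronic, which also report RNA from introns, had medians of -0.09 in WT, -0.06 in the line labelled DUXBL-KO, 0.28 in WT pLV2 line 1, 0.02 in line 2, -0.04 in the line labelled TRIM24-KO pLV2 and -0.09 in TRIM33-KO pLV2. Genes annotated as antisense or as intergenic RNA are not given here, so these medians do not cover intergenic transcription. These comparisons of medians carry no test.

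**Figure D2:**
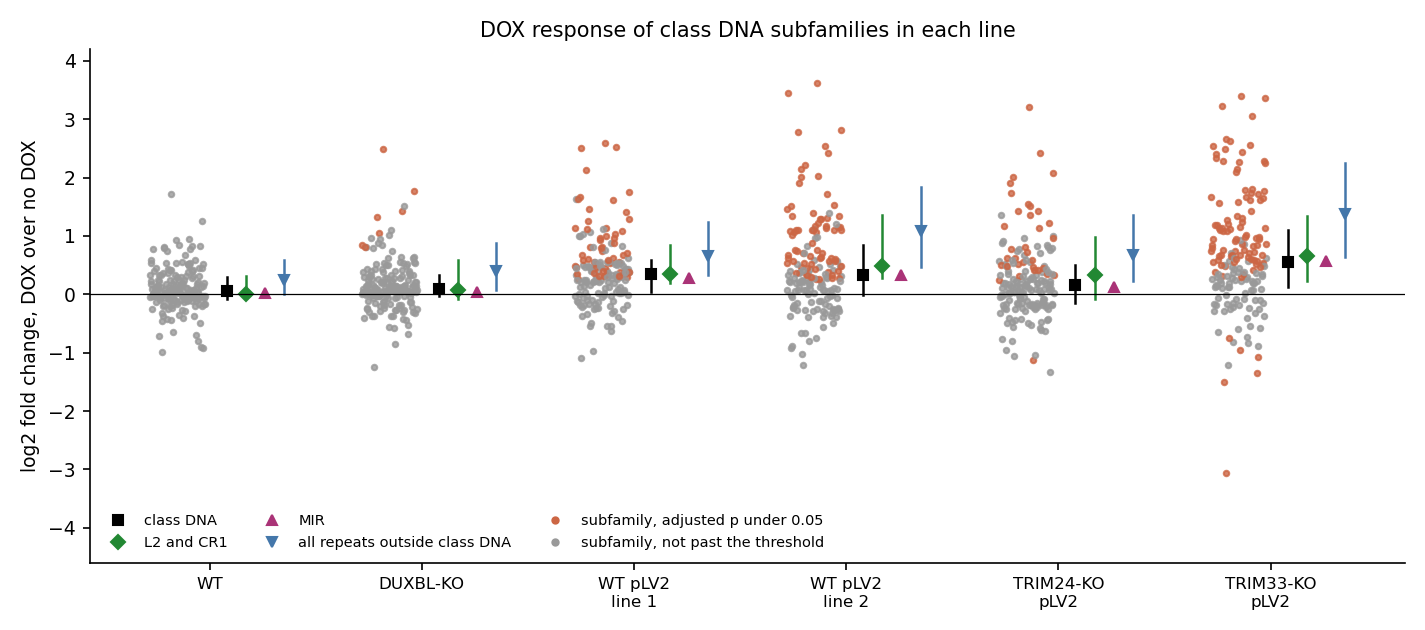
Log2 fold change with DOX of each tested class DNA subfamily (dots, coloured where the adjusted p was under 0.05) in each line, with the median and the lower to upper quartile of class DNA, of L2 and CR1, of MIR and of all repeats outside class DNA. The class DNA median rises from 0.05 in WT to 0.55 in TRIM33-KO pLV2 and lies under the median of all other repeats in each line.

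The direction of these calls depends on what the counts are scaled to. The values above use library sizes and TMM factors from genes. Scaled to repeats alone, which includes the large MERVL-int counts, the median of all genes moved to between -0.25 in WT and -1.33 in TRIM33-KO pLV2. The class DNA median was then below 0 in each of the 6 lines, between -0.19 in WT and -0.69 in TRIM33-KO pLV2. Of the 171 members, 12 passed as higher and 41 as lower with DOX in WT pLV2 line 1, while WT pLV2 line 2 had 15 higher and 94 lower, the line labelled TRIM24-KO pLV2 8 and 74, and TRIM33-KO pLV2 26 and 105. Of the 176 in the first set none passed in WT, and 3 were higher and 0 lower in the line labelled DUXBL-KO. MER63C and MER102c rose on that scale too, in each of the 5 lines where they passed the test, by log2 1.25 to 1.99 for MER63C and 1.05 to 2.12 for MER102c.

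Members that passed in several lines are described next. MER63C, MER63D, MER102c, Charlie24, Tigger17a and Zaphod2 rose in 5 of 6 lines, all but WT. They are 6 of 171 members, a smaller share than the 5.23% of all features and 21.0% of other repeats that rose in the same 5 lines, and they are shown as examples, chosen by these calls. Of the 7 calls in the line labelled DUXBL-KO, which include these 6, only 1 to 4 held when 1 library was left out. In all 4 pLV2 lines 25 of 171 members rose, where 9.21% of all features and 49.7% of other repeats did. These elements belong to 4 families: MER63C and MER63D to hAT-Blackjack, MER102c and Charlie24 to hAT-Charlie, Tigger17a to TcMar-Tigger and Zaphod2 to hAT-Tip100. How the counting divided reads between related subfamilies such as MER63C and MER63D is not given in the sources used here, so their separate values are uncertain. In WT all 6 had both DOX libraries above both others, without passing the test.

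MER63C had 2.95 and 2.98 CPM without DOX in WT and 7.62 and 6.51 CPM with it (log2 1.25 ± 0.27, edgeR adjusted p = 0.0607). For the line labelled DUXBL-KO it went from 2.64 and 4.38 CPM to 12.8 and 11.3 CPM. WT pLV2 line 1 went from 2.20 and 1.93 CPM to 8.30 and 9.76 CPM, and line 2 from 2.57 and 2.21 CPM to 17.0 and 16.0 CPM. The untreated libraries of the 6 lines lay between 1.91 and 4.38 CPM, and the DOX libraries spread more widely. The line labelled TRIM24-KO pLV2 went from 2.34 and 1.91 CPM to 7.54 and 8.51 CPM. TRIM33-KO pLV2 went from 2.63 and 2.21 CPM to 22.8 and 22.7 CPM, 9.38-fold (log2 3.23 ± 0.16, edgeR adjusted p = 3.28e-11).

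MER102c also reached its highest values in TRIM33-KO pLV2, followed by WT pLV2 line 2. It had 7.06 and 6.68 CPM without DOX and 16.1 and 10.5 CPM with it in WT, and 4.74 and 8.60 against 18.2 and 17.9 CPM in the line labelled DUXBL-KO. For WT pLV2 line 2 it rose from 4.89 and 3.68 CPM to 33.3 and 28.0 CPM (log2 2.82 ± 0.18). In TRIM33-KO pLV2 it went from 4.57 and 3.99 CPM to 41.6 and 46.5 CPM (log2 3.36 ± 0.18, edgeR adjusted p = 9.22e-11). The fold change was 3.38 in WT pLV2 line 1 and 4.23 in the line labelled TRIM24-KO pLV2. In each of these lines the arms did not overlap.

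Tigger17a was the most abundant of the 6. It had 25.8 and 25.6 CPM without DOX and 49.0 and 38.9 CPM with it in WT (log2 0.77 ± 0.18, edgeR adjusted p = 0.0858). WT pLV2 line 1 went from 12.7 and 14.7 CPM to 28.8 and 30.7 CPM, and the line labelled TRIM24-KO pLV2 from 14.7 and 16.3 CPM to 22.9 and 30.9 CPM. Its response was smallest in that last line among the pLV2 lines. WT pLV2 line 2 went from 17.5 and 17.7 CPM to 70.5 and 61.6 CPM, and TRIM33-KO pLV2 from 16.1 and 14.9 CPM to 78.0 and 73.6 CPM (log2 2.29 ± 0.12).

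Charlie24 rose from 4.80 and 3.35 CPM to 9.74 and 12.8 CPM in WT pLV2 line 1 and from 4.37 and 4.80 CPM to 30.04 and 28.0 CPM in TRIM33-KO pLV2 (log2 2.66 ± 0.22). MER63D rose from 6.24 and 6.37 CPM to 11.8 and 13.4 CPM in WT pLV2 line 1 and from 6.11 and 6.24 CPM to 36.4 and 30.2 CPM in TRIM33-KO pLV2 (log2 2.43 ± 0.15). Neither had overlapping arms in any of the 6 lines. Zaphod2 was rare: in TRIM33-KO pLV2 it had 4 and 9 counts without DOX and 40 and 30 counts with it, and in WT 4 and 6 against 27 and 12 counts. With so few counts its size of change is poorly known, although it passed the test in 5 lines.

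**Figure D3:**
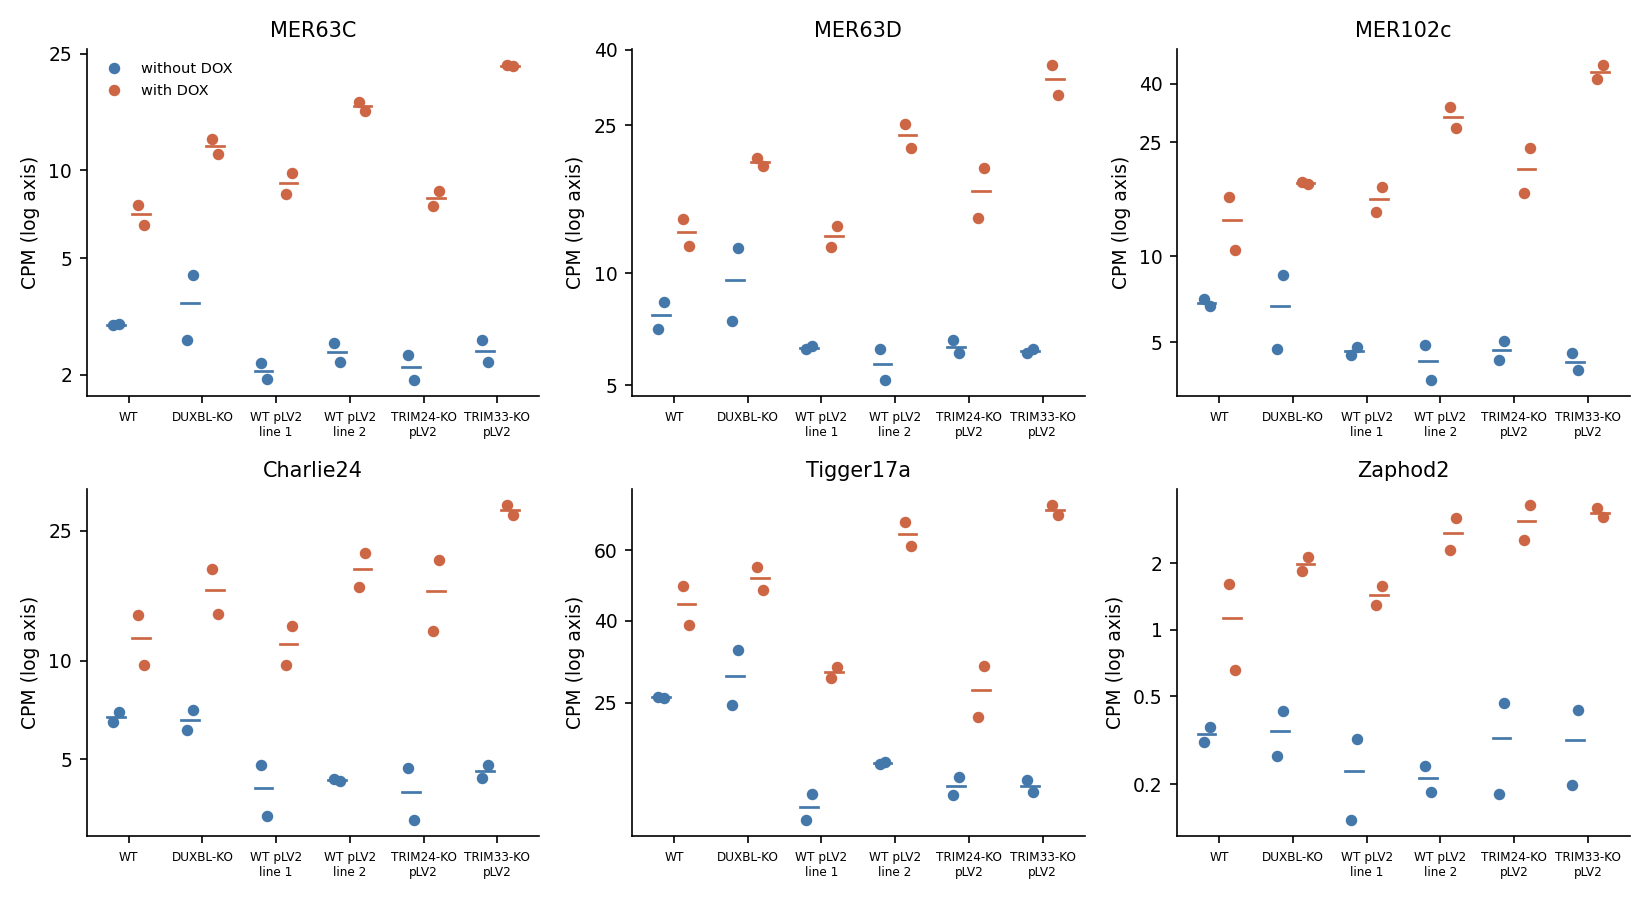
Level of the 6 subfamilies that rose in 5 lines, in CPM on a log axis, with 1 point per library and a short bar at the mean of 2. Libraries with DOX lie above both libraries without DOX in each line shown, and TRIM33-KO pLV2 has the highest MER63C values with DOX, 22.8 and 22.7 CPM.

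The abundant members were examined next. After FordPrefect, the next by mean level over all libraries were URR1A at 389 CPM, URR1B at 385, MER2 at 168, MER5A at 120.4, MER20 at 119.9, Tigger7 at 119.3, RCHARR1 at 90.0, MER5B at 87.9 and Charlie1a at 83.2. CPM is not divided by the length of the elements, so this order mixes length, copy number and RNA. URR1A, URR1B and RCHARR1 are rodent elements of the hAT-Charlie family, younger than most members. URR1A had 447 and 464 CPM without DOX and 452 and 478 CPM with it in WT, where the arms overlapped. It rose in WT pLV2 line 1 from 268 and 263 CPM to 331 and 330.0 CPM, 1.24-fold (log2 0.32 ± 0.07, edgeR adjusted p = 0.00273). In TRIM33-KO pLV2 it rose from 314 and 290 CPM to 459 and 464 CPM, 1.53-fold.

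All 9 of these members rose in TRIM33-KO pLV2, by log2 0.35 ± 0.06 (MER2) to 1.01 ± 0.07 (MER5A). The 9 are among the 24 members with 300 or more counts per library in the pLV2 set. Of those 24, 23 passed in TRIM33-KO pLV2, 18 in WT pLV2 line 1, 17 in line 2 and 8 with the TRIM24-KO label. In the same order of lines, 38.9%, 18.7%, 29.3% and 18.4% of all features passed, and 80.6%, 59.6%, 74.4% and 55.9% of other repeats. The number of the 9 that passed is thus no result about them. MER5A is a short non-autonomous element of the hAT-Charlie family, without a transposase gene of its own. It went from 127 and 132 CPM to 138 and 135 CPM in WT (log2 0.07 ± 0.13, not past the test), from 69.8 and 72.5 CPM to 102 and 106 CPM in WT pLV2 line 1, and from 89.5 and 86.4 CPM to 172 and 183 CPM in TRIM33-KO pLV2. Tigger7, a TcMar-Tigger element, went from 128 and 126 CPM to 142 and 137 CPM in WT and from 86.0 and 88.5 CPM to 166 and 179 CPM in TRIM33-KO pLV2 (log2 0.98 ± 0.09). All 9 rose in WT pLV2 line 1, by log2 0.26 to 0.59, although the call of Charlie1a was lost without any 1 of the 4 libraries and those of URR1B and MER20 without DOX replicate 1. In line 2 all but Charlie1a rose, by log2 0.26 to 0.70, with the call of MER20 lost without DOX replicate 1. With the TRIM24-KO label only MER5A, Tigger7, RCHARR1 and MER5B rose, by log2 0.31 to 0.47, with the calls of RCHARR1 and MER5B lost without DOX replicate 2 and that of MER5B also without untreated replicate 2. The other 5 lay between 0.07 and 0.16 without passing the test. None of the 9 passed it in WT or in the line labelled DUXBL-KO. Scaled to repeats alone, these changes turned negative in TRIM33-KO pLV2 and in WT pLV2 line 1 for all 9.

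The calls by family are given for TRIM33-KO pLV2, where 38.9% of all features passed, 19.6% upward, and 80.6% of other repeats passed. Of the 41 TcMar-Tigger members tested there, 27 rose and 3 fell (median log2 0.68). In hAT-Blackjack 5 of 8 rose (median 1.09), in hAT-Tip100 13 of 25 rose and 1 fell (median 0.67), and in hAT-Charlie 31 of 68 rose and 2 fell (median 0.44). TcMar-Tc2 had 2 of 8 risen there and none in the other 5 lines. Of the families with few members, hAT had 4 of 5 risen (median 0.98), PiggyBac 2 of 2 (median 1.53), MULE-MuDR 2 of 2 (median 1.65) and TcMar 1 of 1. TcMar-Mariner had 1 of 3 risen, the members with no family beyond DNA 2 of 7, and MuDR 0 of 1. The difference between families was not tested.

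Few members fell. In TRIM33-KO pLV2 Charlie22a, Chap1_Mam, MER127, MERX, ORSL-2a and Tigger18a did, and in the line labelled TRIM24-KO pLV2 Charlie25 did, all 7 named after their values were seen and all with under 50 counts per library on average in the pLV2 set. These are 6 and 1 of 171 members. Of all features, 38.9% passed in TRIM33-KO pLV2, 19.6% upward and the remainder downward. In the line labelled TRIM24-KO pLV2 18.4% passed, 13.5% upward and the remainder downward. Tigger18a, the most abundant of the 6, went from 3.83 and 4.18 CPM to 2.40 and 2.38 CPM (log2 -0.74 ± 0.27, edgeR adjusted p = 0.0376). ORSL-2a went from 14 and 22 counts to 1 and 1 count (edgeR adjusted p = 0.00313). Charlie25 went from 3.42 and 3.83 CPM to 1.57 and 1.78 CPM (log2 -1.12 ± 0.31, edgeR adjusted p = 0.0177), a call that was lost without untreated replicate 2, without DOX replicate 2 and without both libraries rich in CT010467.1. None of the 6 members that fell in TRIM33-KO pLV2 rose in another line. The count of 6 rests on single libraries and on the tool: it was 2 without untreated replicate 1, untreated replicate 2 or DOX replicate 2 of TRIM33-KO pLV2, 1 without its DOX replicate 1, 1 under DESeq2, and 3 under RLE factors or from the compared groups only.

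The lines were compared by testing the difference of their DOX effects. Between the line labelled DUXBL-KO and WT, 0 of 176 members differed (edgeR; 1 with an unadjusted p under 0.05, 0 by DESeq2), where 0.00% of all features did. Between the line labelled TRIM24-KO pLV2 and the mean of both WT pLV2 lines, 0 of 171 differed (28 with an unadjusted p under 0.05, 1 by DESeq2), where 0.467% of all features and 1.39% of other repeats did. Between WT pLV2 line 2 and line 1, 0 of 171 differed (15 with an unadjusted p under 0.05, 3 by DESeq2), where 0.641% of all features and 7.43% of other repeats did. TRIM33-KO pLV2 was the only line with members that differed: 9 of 171 rose further than in the mean of both WT pLV2 lines, and none less far, where 1.89% of all features differed, 1.71% upward, and 24.2% of other repeats differed. That direction holds on the scale of genes: scaled to repeats alone, 3 members rose further and 17 less far, and RCHARR1 and MER5A were at log2 -0.04 and -0.09. The comparisons of both knockouts share the WT libraries.

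The 9 were MER44C, MER44B, Tigger17a and MER46C of TcMar-Tigger, RCHARR1, MER102c, MER5A and MER103C of hAT-Charlie, and MER63D of hAT-Blackjack. MER44C went from 3.70 and 4.38 CPM to 6.62 and 6.96 CPM in WT pLV2 line 1 and from 4.31 and 4.60 CPM to 11.4 and 8.65 CPM in line 2. In TRIM33-KO pLV2 it went from 4.17 and 3.55 CPM to 18.8 and 18.3 CPM, above every other DOX library. The difference in its DOX effect was log2 1.31 ± 0.22 (edgeR adjusted p = 0.00535). MER44B went from 24.2 and 22.6 CPM to 37.6 and 36.8 CPM in WT pLV2 line 1, from 25.2 and 24.6 CPM to 52.8 and 51.4 CPM in line 2 and from 24.3 and 22.3 CPM to 67.0 and 70.0 CPM in TRIM33-KO pLV2 (difference log2 0.69 ± 0.13, edgeR adjusted p = 0.00737). Without untreated replicate 2 of TRIM33-KO pLV2 both calls were lost (edgeR adjusted p = 0.0542 for MER44C and 0.0693 for MER44B).

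**Figure D4:**
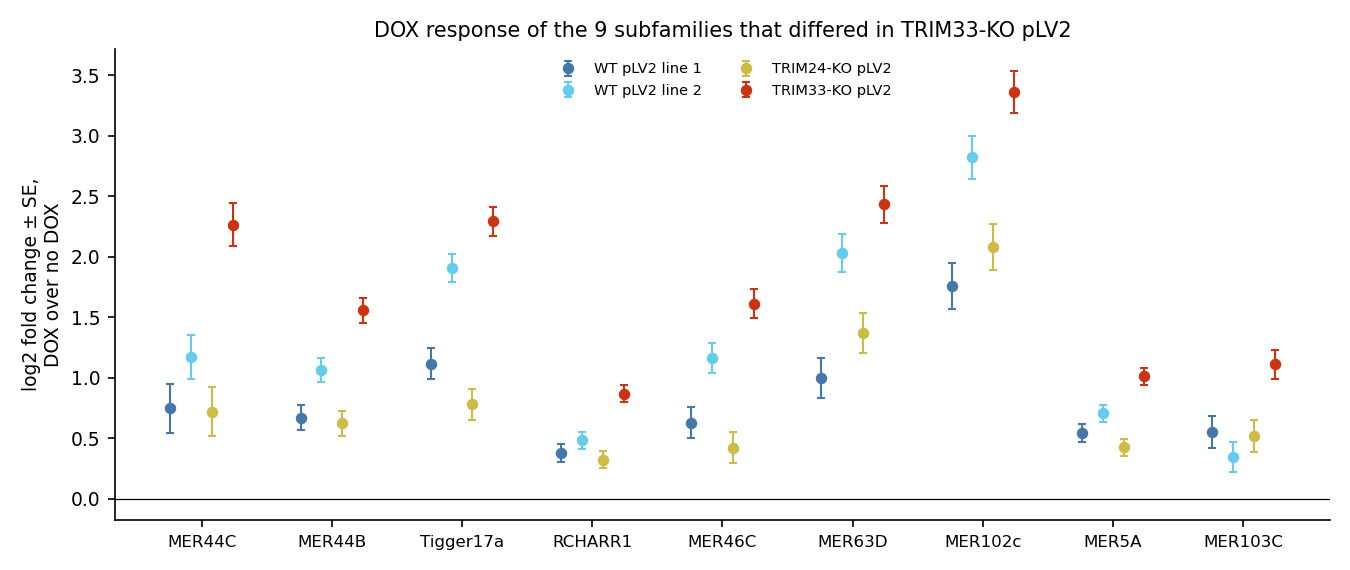
Log2 fold change with DOX, with its standard error, in the 4 pLV2 lines for the 9 subfamilies whose DOX effect differed between TRIM33-KO pLV2 and the mean of both WT pLV2 lines. TRIM33-KO pLV2 (red) lies above the other lines for each of the 9, and WT pLV2 line 2 (light blue) lies above line 1 for all but MER103C.

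The reference line decided that count. Against WT pLV2 line 1 alone 12 members differed, and against WT pLV2 line 2 alone 0 did (30 with an unadjusted p under 0.05), with MER44C at log2 1.10 (adjusted p = 0.502) and MER44B at 0.49 (adjusted p = 0.62). Which WT line belongs to which knockout is not given in the sources used here. The count was 0 without replicate 2 of TRIM33-KO pLV2 without DOX, 4 without replicate 1 of that group, 2 without replicate 1 with DOX and 5 without replicate 2 of WT pLV2 line 1 without DOX. It was 10 without both libraries rich in CT010467.1.

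Before DOX the lines differed in a few members. The line labelled DUXBL-KO and WT differed in 0 of 176 (edgeR; 5 with an unadjusted p under 0.05, 0 by DESeq2), where 0.0368% of all features did. WT pLV2 line 2 had 27 members higher and 1 lower than line 1, where 37.0% of all features and 20.0% of other repeats differed. The count of 28 became 13 without line 2 replicate 1, 14 without either replicate of line 1, 12 under DESeq2, 11 adjusted over repeats alone and 4 (1 higher, 3 lower) scaled to repeats alone. MER2, a short TcMar-Tigger element, was at 108 and 110 CPM in line 1 and 144 and 135 CPM in line 2 (log2 0.36 ± 0.06, edgeR adjusted p = 0.000282), and MER5A was at 69.8 and 72.5 CPM and 92.7 and 92.4 CPM (log2 0.38 ± 0.07). MER58D, a hAT-Charlie element, was lower in line 2, at 3.59 and 3.92 CPM against 5.56 and 5.73 CPM (log2 -0.59 ± 0.20, edgeR adjusted p = 0.0309). The call of MER58D was lost without any 1 of the 4 libraries compared (edgeR adjusted p from 0.069 to 0.194), under DESeq2 and with no filter. For MER2 the difference between the WT lines without DOX was thus as large as its response to DOX in either (log2 0.34 and 0.26).

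Against the mean of both WT lines without DOX, the line labelled TRIM24-KO pLV2 had 16 members higher and 1 lower, where 41.4% of all features and 14.1% of other repeats differed. Tigger12, a TcMar-Tigger element, stood apart: it had 15.0 and 13.7 CPM there, 6.86 and 7.08 CPM in WT pLV2 line 1, 7.80 and 7.42 CPM in line 2 and 7.70 and 7.20 CPM in TRIM33-KO pLV2 (log2 0.98 ± 0.11, edgeR adjusted p = 2.09e-06). With DOX it stayed at 15.0 and 17.8 CPM, above the other pLV2 lines. MER2 was higher by log2 0.24 ± 0.05, but by 0.42 against WT pLV2 line 1 alone and by 0.063 against line 2 alone, where the call was lost. MER58C, a hAT-Charlie element, was lower, at 32.8 and 32.5 CPM against 37.2 to 41.6 CPM in the WT lines (log2 -0.26 ± 0.08, edgeR adjusted p = 0.0148). The call of MER58C was lost in 5 of 6 fits that left out 1 library, all but the one without replicate 1 of WT pLV2 line 2 (edgeR adjusted p from 0.0343 to 0.171 over the 6), under DESeq2, with no filter and against WT pLV2 line 1 alone. The count of 17 became 6 without replicate 1 of that line and 27 without replicate 1 of WT pLV2 line 2. It was 25, all higher, against WT pLV2 line 1 alone, 7 (5 higher, 2 lower) against line 2 alone, 5 adjusted over repeats alone and 8 (6 higher, 2 lower) scaled to repeats alone.

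TRIM33-KO pLV2 without DOX had 5 members higher and 1 lower than the mean of both WT lines, where 22.5% of all features and 9.19% of other repeats differed. Tigger6a was at 9.84 and 10.6 CPM against 5.86 to 9.79 CPM in the WT lines (log2 0.50 ± 0.15, edgeR adjusted p = 0.0223), and Charlie1b at 14.0 and 15.8 CPM against 10.4 to 13.3 CPM (log2 0.35 ± 0.11, edgeR adjusted p = 0.0332). FordPrefect was the member that was lower (log2 -0.69 ± 0.19, edgeR adjusted p = 0.0150), and without replicate 2 of TRIM33-KO pLV2 the difference was log2 -0.31 and the call was lost. The calls of Tigger6a and Charlie1b were lost in 4 and 3 of the 6 fits that left out 1 library, for both elements without replicate 2 of TRIM33-KO pLV2 and without replicate 2 of WT pLV2 line 2. The count of 6 became 1 without replicate 2 of TRIM33-KO pLV2, 3 without its replicate 1 or without either replicate of WT pLV2 line 1, and 2 without replicate 2 of WT pLV2 line 2. It was 20 against WT pLV2 line 1 alone and 0 against line 2 alone, 2 under DESeq2, 1 scaled to repeats alone and 0 adjusted over repeats alone.

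The members differ widely in depth, which sets what the test could show. Over all libraries 7 members had a mean above 100 CPM, 40 lay between 10 and 100, 41 lay under 1 CPM, and 5 had no count anywhere. In TRIM33-KO pLV2, 23 of the 24 members with 300 or more counts per library passed the test (median SE 0.09 on the log2 scale) and 23 of the 57 with under 30 counts did (median SE 0.38). Those counts were 18 of 24 and 7 of 57 in WT pLV2 line 1. Over all depths, 38.9% of all features and 80.6% of other repeats passed in TRIM33-KO pLV2, and 18.7% and 59.6% in WT pLV2 line 1. The shares of other features at the same depths are not given here, so the counts are not a trait of class DNA. A change of the size seen in abundant members, such as log2 0.31 for URR1B in WT pLV2 line 1, was not detectable in a member with under 30 counts. In WT and the line labelled DUXBL-KO the standard errors were larger at the same depth, and the biological coefficient of variation was 17.6% there against 8.73% for the pLV2 lines, so the smaller number of calls there does not by itself show a smaller response. The class DNA medians were 0.05 and 0.09 there and 0.16 to 0.55 in the pLV2 lines. Without untreated replicate 2 the median of the line labelled DUXBL-KO was 0.28. The difference between the sets was not tested.

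**Figure D5:**
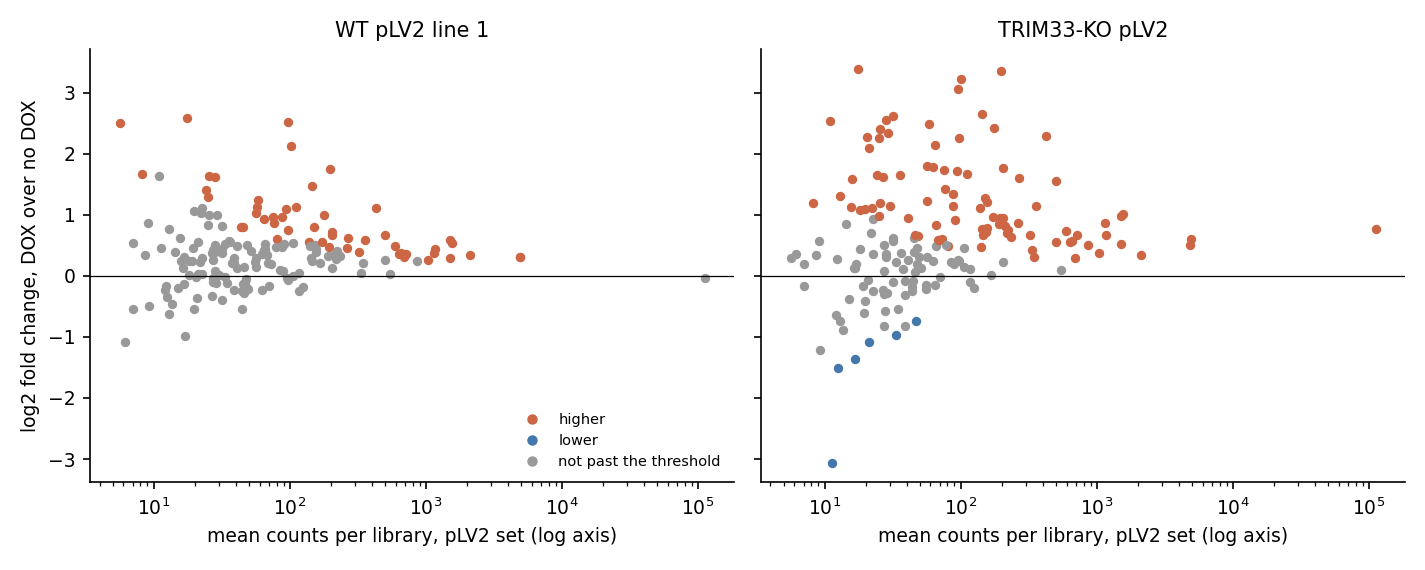
Log2 fold change with DOX against the mean counts per library in the pLV2 set (log axis) for each tested class DNA subfamily, in WT pLV2 line 1 (left) and TRIM33-KO pLV2 (right), coloured by the call. The rarest members spread most, the 6 members that fell in TRIM33-KO pLV2 all lie under 50 counts, and FordPrefect is the point at the far right.

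The responses of single members were related between lines. Across the 171 members tested in both sets, Spearman's rho of the log2 fold changes lay between 0.41 (WT with WT pLV2 line 1) and 0.88 (WT pLV2 line 2 with TRIM33-KO pLV2), over lines that share no library. Members share their scaling factors and related members may share reads, so these are descriptions. The log2 fold change was above 0 in all 6 lines for 67 of the 171 and below 0 in all 6 for 6. Matching shares over all features and other repeats are not given here, so these counts are descriptions as well. The signs hold on the scale of genes: scaled to repeats alone, the class DNA median was below 0 in each line.

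Genes that the genome built from old transposases were examined beside the elements. Mammals keep several such genes, whose proteins bind DNA but with few exceptions no longer move it: the Tigd genes and Pogk from Tigger-like elements, the Pgbd genes from piggyBac, the Thap genes from P-like elements and the Zbed genes from hAT. Of 29 listed, 28 were found and 24 tested. None passed in WT or in the line labelled DUXBL-KO. Of the 24, 1 rose and 4 fell in WT pLV2 line 1, 2 rose and 4 fell in line 2, 1 rose in the line labelled TRIM24-KO pLV2, and 3 rose and 5 fell in TRIM33-KO pLV2. In the same order of lines, 18.7%, 29.3%, 18.4% and 38.9% of all features passed, so the number of these genes that passed is no result about them. Tigd2, tigger transposable element derived 2, rose in all 4 pLV2 lines: its mean went from 5.64 to 10.9 CPM in WT pLV2 line 1 (log2 0.94 ± 0.17, edgeR adjusted p = 0.000791) and from 5.49 to 9.49 CPM in TRIM33-KO pLV2 (log2 0.80 ± 0.18, edgeR adjusted p = 0.00167). In WT it went from 13.3 to 19.0 CPM without passing the test (log2 0.51 ± 0.20). Pgbd5 rose in WT pLV2 line 2 (log2 0.85 ± 0.26) and TRIM33-KO pLV2 (0.93 ± 0.27), while Pgbd1 fell in the same lines (-0.73 ± 0.24 and -1.02 ± 0.27). In TRIM33-KO pLV2 Thap3 fell (log2 -0.98 ± 0.21) and Thap7 rose (0.61 ± 0.18).

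The levels of FordPrefect were compared with those of other features. Across all 24 libraries, the 10 features whose log2 level was most alike, among 5541 with enough counts, were Rplp2 (Pearson's r 0.93), Rpl9 (0.92), Rpl35a (0.92), Rpl39 (0.91), Rps13-ps1 (0.91), Gm26377 (0.90), Rps4x (0.89), Mir5121 (0.88), Txn1 (0.88) and Cox5a (0.87). Of these, Gm26377 and Mir5121 are annotated as miRNA genes and Rps13-ps1 as a processed pseudogene. Within the first set alone r lay between 0.23 (Gm26377) and 0.91 (Mir5121), and within the pLV2 set between 0.79 (Cox5a) and 0.95 (Gm26377). Other abundant members were less alike it, with r of 0.55 for URR1A and 0.42 for MER5A. The measure was chosen after the FordPrefect levels were seen, the libraries share their groups, and the values are descriptions without a test.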

How the data were processed

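The deposited tables hold raw counts per gene and repeat subfamily, made by the authors, in whole numbers and 1 table per library. Libraries were rRNA-depleted, strand-specific and read as 75 bp pairs, per the labels' protocols. The submitters' processing notes name bcl2fastq 2.20.0, cutadapt 1.18, STAR 2.7.6a and the build mm10; the counting tool, its strand setting and its handling of reads with several matches are not given in the sources used here. Of 55487 gene IDs, 54435 matched GENCODE M21 (GRCm38) with their version, 792 without it, and 260 did not match.

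From the counts, a mean per group was fitted by negative binomial models in edgeR 4.0.16 (R 4.3.3, glmQLFTest, 2-sided) to 8 libraries (WT, DUXBL-KO) and 16 libraries (pLV2) apart, with filterByExpr, library sizes and TMM factors from gene counts, and p-values adjusted over all features in each of 14 contrasts. CPM values use the effective library sizes. Binomial intervals cover counting error only. The code was tested on simulated data. Groups follow the sample titles. Alternatives were RLE factors, library sizes from genes and repeats or from repeats alone, other filters, DESeq2 1.42.0, other adjustments, a replicate block, fewer groups, other WT references and leaving out libraries.

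Members and lists were chosen with earlier results of these data known. Named with values were the 10 members with the highest mean CPM; per DOX contrast, the 3 that rose and the 3 that fell with the smallest p among those past the threshold with at least 50 mean counts and arms without overlap; and 2 in each direction for the other contrasts. All members were named as well where 9 or fewer passed in a direction of a DOX contrast or of a difference in DOX effects. These members were named after their values were seen. Without DOX, the members that passed between TRIM33-KO pLV2 and the mean of the WT lines were not all named. The alternative without both libraries rich in CT010467.1 was added after seeing the data.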

Additional observations from a re-analysis of the deposited data

Results flagged for a closer look

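Differences between lines in the response to DOX passed the test for 9 class DNA subfamilies, all between TRIM33-KO pLV2 and the mean of the WT pLV2 lines (edgeR interaction, adjusted over all features). The differences on the log2 scale were 1.31 for MER44C, 0.69 for MER44B, 0.78 for Tigger17a, 0.44 for RCHARR1, 0.72 for MER46C, 0.92 for MER63D, 1.07 for MER102c, 0.39 for MER5A and 0.66 for MER103C. The members differ in how far their calls held over 12 alternative settings and 12 fits that each left out 1 library. MER44C passed in 11 of the 12 settings and 11 of the 12 fits, MER44B in 10 and 11, Tigger17a in 10 and 10, RCHARR1 and MER46C each in 10 and 8, MER63D in 10 and 7, MER102c in 11 and 6, MER5A in 9 and 5, and MER103C in 6 and 2. Against WT pLV2 line 2 alone none of the 9 passed, with differences from 0.31 for MER5A to 1.10 for MER44C. Scaled to repeats alone, RCHARR1 and MER5A had differences of -0.04 and -0.09.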

How the results depend on the processing

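Counts of class DNA members past the threshold moved by over 1.5 times under these settings. In WT, where none passed, the count was 6 with no filter and 2 under DESeq2, under adjustment over repeats alone and under the replicate block. In the line labelled DUXBL-KO (7) it was 3 scaled to repeats alone, 13 adjusted over repeats alone and 2 from the compared groups only. In WT pLV2 line 2 (71) it was 109 scaled to repeats alone. In the line labelled TRIM24-KO pLV2 (34) it was 82 scaled to repeats alone, 16 from the compared groups only and 13 without both libraries rich in CT010467.1. For differences in the DOX effect, that line (0) gave 1 under RLE factors, DESeq2, adjustment over repeats alone, WT pLV2 line 2 as reference and without both libraries rich in CT010467.1, and 2 with no filter. TRIM33-KO pLV2 (9) gave 20 scaled to repeats alone (3 higher, 17 lower), 32 adjusted over repeats alone and 0 against WT pLV2 line 2. WT pLV2 line 2 against line 1 (0) gave 2 under RLE factors, 4 with no filter or adjusted over repeats alone, 1 at a mean of at least 10 counts, and 3 under DESeq2, from the compared groups only and without both libraries rich in CT010467.1. Without DOX, the line labelled TRIM24-KO pLV2 (17) gave 8 scaled to repeats alone (6 higher, 2 lower), 5 adjusted over repeats alone and 7 against WT pLV2 line 2. TRIM33-KO pLV2 (6) gave 1 scaled to repeats alone, 2 under DESeq2, 0 adjusted over repeats alone or against WT pLV2 line 2, and 20 against line 1. WT pLV2 line 2 against line 1 (28) gave 4 scaled to repeats alone (1 higher, 3 lower), 12 under DESeq2 and 11 adjusted over repeats alone. Of 57 named calls, 41 held in each fit that left out 1 library and 16 were lost in at least 1. The causes were not tested.

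Leaving out 1 library at a time gave counts of 1 to 4 in the line labelled DUXBL-KO, 32 to 39 in WT pLV2 line 1, 50 to 68 in line 2, 13 to 30 in the line labelled TRIM24-KO pLV2 and 74 to 83 in TRIM33-KO pLV2. For differences in the DOX effect the ranges were 0 to 1 for the line labelled TRIM24-KO pLV2, 0 to 11 for TRIM33-KO pLV2 and 0 to 2 for WT pLV2 line 2. Without DOX they were 6 to 27, 1 to 8 and 13 to 27. For WT pLV2 line 2 against line 1 the count was 13 without line 2 replicate 1 and 14 without either replicate of line 1. FordPrefect changed sign when a library was left out, with log2 ranges of -0.23 to 0.22 in WT, -0.049 to 0.012 in WT pLV2 line 1 and -0.21 to 0.42 in the line labelled TRIM24-KO pLV2.

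Scaled to repeats alone, FordPrefect fell to log2 -0.34 in the line labelled DUXBL-KO, -0.56 in WT pLV2 line 2, -0.49 in the line labelled TRIM24-KO pLV2 and -0.47 in TRIM33-KO pLV2. In WT pLV2 line 1 the reversed values were -0.30 for URR1A, -0.31 for URR1B, -0.28 for MER2, -0.072 for MER5A, -0.32 for MER20, -0.022 for Tigger7, -0.24 for RCHARR1, -0.17 for MER5B and -0.36 for Charlie1a. In WT pLV2 line 2 they were -0.62 for URR1A, -0.63 for URR1B, -0.66 for MER2, -0.21 for MER5A, -0.64 for MER20, -0.27 for Tigger7, -0.43 for RCHARR1 and -0.47 for MER5B. In the line labelled TRIM24-KO pLV2 they were -0.24 for MER5A, -0.20 for Tigger7, -0.34 for RCHARR1 and -0.36 for MER5B. In TRIM33-KO pLV2 they were -0.63 for URR1A, -0.73 for URR1B, -0.89 for MER2, -0.23 for MER5A, -0.71 for MER20, -0.26 for Tigger7, -0.37 for RCHARR1, -0.58 for MER5B and -0.87 for Charlie1a. From the compared groups only, FordPrefect was at 0.00067 in WT pLV2 line 1.

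Replicate numbers were shared between groups, without a label that pairs them. Deviations of same-numbered libraries correlated at 0.29 to 0.62 over 6 pairs of groups in the first set and at -0.06 to 0.24 over 28 pairs in the pLV2 set. With the replicate block the counts with DOX were 2 in WT, 9 in the line labelled DUXBL-KO, 50 and 72 in the WT pLV2 lines, 35 in the line labelled TRIM24-KO pLV2 and 97 in TRIM33-KO pLV2. Members with few counts limit all of these comparisons: under 30 counts per library the median standard error was 0.41 in WT pLV2 line 1.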
